A study of Mus musculus with 4 samples.

Results

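Transcripts of 41 genes for heat shock proteins, cytosolic chaperones and their co-chaperones were followed in natural killer (NK) cells, innate immune cells able to kill tumour cells and infected cells without prior sensitisation. The genes were taken by name and role, a rule that uses no measured value, though earlier results of these data were known when they were chosen. They comprised 10 stress-inducible chaperones and partners, 12 constitutive ones, 5 mitochondrial ones, 10 co-chaperones of HSP70 and HSP90, 2 heat shock transcription factors and 2 proteins of the secretory pathway. Of the 41, 40 had an identifier among the 35275 in the table, and the constitutive HSP70 relative Hspa14 was not analysed here. RNA was sequenced from 4 groups with 1 library each, all of CD3-negative, NK1.1-positive cells sorted from mouse spleen. The Irf4-/- injected group came from mice labelled as lacking the transcription factor IRF4 given B16-F10 cells (an established mouse melanoma line) intravenously, with spleens taken on day 20. The WT injected group came from wild-type C57BL/6 mice treated in the same way. The Irf4-/- control and WT control groups came from mice of the same genotypes that had received no B16-F10 cells, and the labels name no mock injection. The labels do not give the deleted part of Irf4, the number of animals behind a library, or whether injected and control mice were handled on the same day, so a difference in handling and the injection cannot be told apart.

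Chaperones hold unfolded or newly made proteins and help them fold. HSP70 proteins bind short hydrophobic stretches, J-domain proteins (the DNAJ genes) bring them their clients and start ATP hydrolysis, nucleotide exchange factors such as HSP110 and the BAG proteins release the client, and HSP90 takes over many kinases and steroid receptors with the help of co-chaperones. Under stress the transcription factor HSF1 is freed from these chaperones and binds heat shock elements, which are repeats of the unit GAA in alternating orientation, so that the inducible members are known to be transcribed together. Their constitutive relatives are made in unstressed cells at high levels.

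Total counts were between 15878159 and 21104881 per library. All 10 NK markers, such as Ncr1 and Klrb1c, were high in every library, with sums of 12544 and 11967 CPM (read counts relative to library size, scaled between libraries) in Irf4-/- injected and WT injected cells, against 11592 and 11260 CPM in Irf4-/- control and WT control cells. Irf4 had 236 and 188 counts in the libraries labelled Irf4-/- injected and Irf4-/- control, against 57 in WT injected and 93 in WT control, so it was higher under the knockout label. Counts over the whole gene cannot check that label while the deleted part is unknown, and each genotype direction below is that of the label. The WT injected library stood apart from the rest, with a root mean square log2 distance of 0.359 to 0.399 to the other 3, against 0.234 to 0.326 among those. Monocyte and macrophage markers (10 of 10 detected) summed to 68.2 and 83.4 CPM in Irf4-/- injected and WT injected cells, against 58.4 and 37.4 CPM in Irf4-/- control and WT control cells. Of 5 melanoma genes, Tyr, Dct, Mlana and Tyrp1 were at 0 in all 4 libraries, and only Pmel had counts. Pmel had 3.54 and 3.07 CPM in the Irf4-/- and WT injected libraries, against 3.08 and 3.69 CPM in the Irf4-/- and WT control libraries.

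The promoter sequences of the genes with the widest spread between libraries are shown first, because a near-identical pair among them limits what their counts can tell apart. The 150 bases before the start of Hspa1a and Hspa1b, which lie side by side on chromosome 17 and encode the stress-inducible HSP70, are printed from RefSeq on GRCm38.p6, 5′ to 3′ on the minus strand that both genes use. Capitals mark GAANNTTC, a pair of inverted heat shock element units.
Hspa1a, chr17:34972157-34972306: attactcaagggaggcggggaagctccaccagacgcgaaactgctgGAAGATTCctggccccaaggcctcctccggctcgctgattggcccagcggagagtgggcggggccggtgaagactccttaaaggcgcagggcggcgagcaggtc
Hspa1b, chr17:34959239-34959388: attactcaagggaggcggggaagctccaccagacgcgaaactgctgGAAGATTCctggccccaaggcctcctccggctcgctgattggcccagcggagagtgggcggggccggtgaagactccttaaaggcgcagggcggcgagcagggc
These stretches differed at 1 base of 150, T149G, with positions counted from the 5′ end and the Hspa1a base first. In the GENCODE transcripts the coding sequences of this pair were 99.4% identical and the 3′ untranslated regions 47.8%. Of all 50-base stretches of the Hspa1a transcript 58.8% also occurred in Hspa1b, so reads that fall in the coding sequence may be shared or lost between them.

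Short sites of 3 more members show the other arrangements that were found, again in capitals. The Hspe1 site, on the plus strand, joins units in both orders, and the Dnaja1 (plus strand) and Hsph1 (minus strand) sites hold a single pair of units each.
Hspe1, chr1:55088054-55088081: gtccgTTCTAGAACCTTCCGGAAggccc
Dnaja1, chr4:40722339-40722356: ctctaGAAAATTCtacga
Hsph1, chr5:149636357-149636374: aatctTTCTCGAAggctc
The 250 bases before the start were searched for GAANNTTC and TTCNNGAA, each its own reverse complement so that both strands are covered, in the 33 members of the RefSeq promoter table. GAANNTTC stood before 9 of 33 members (27.3%) and before 7.73% of all 27025 genes. By class it stood before 4 of 9 inducible members (Hspa1a, Hspa1b, Hspb1 and Dnaja1), 1 of 9 constitutive (Dnajb6), 2 of 4 mitochondrial (Hspd1 and Hspe1) and 2 of 9 co-chaperone genes (Fkbp4 and Stub1). TTCNNGAA, a search added later, was found before 6 of 33 members (18.2%) and 8.11% of all genes. Joined runs of 3 units, which overlap both motifs, preceded Dnajb6, Hspd1 and Hspe1, or 9.09% of members, against 0.514% of all genes. The Hspd1 and Hspe1 matches are the same stretch of chromosome 1, read from opposite strands, so these counts hold it for both genes. A match is a description of letters in this window and says nothing of binding.

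The question addressed by setting injected against control mice is what the NK cells of mice given melanoma cells express differently on day 20. Of the inducible chaperones, 8 of the 9 that could be tested fell with injection, and the transcripts of these 8 were lower in both injected libraries than in either control. The orders of libraries found among these 8 were those of 8.28%, 4.07% and 7.15% of 9674 genes. The test that picked these 8 already favours genes with such a separation. As a class the inducible members had the lowest median, though Dnajb4, Chordc1 and Bag3 differed by less than some co-chaperones and Hspa8. In a pair of single libraries a log2 ratio of CPM is given with a 95% interval that covers counting error only, and a gene is called when it is at least 2-fold apart, averages at least 5 CPM and has an interval that leaves out 0. Such a call is a rule of size with no test behind it. "Rose" and "fell" are kept for the test of the additive model (edgeR's quasi-likelihood test with genotype and injection over all 4 libraries, Benjamini-Hochberg adjusted p under 0.05). The spread behind that test is only how far the 4 libraries depart from additivity, largely as pooled over genes. In bulk samples fewer cells with a transcript and less of it per cell cannot be told apart.

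**Figure D1:**
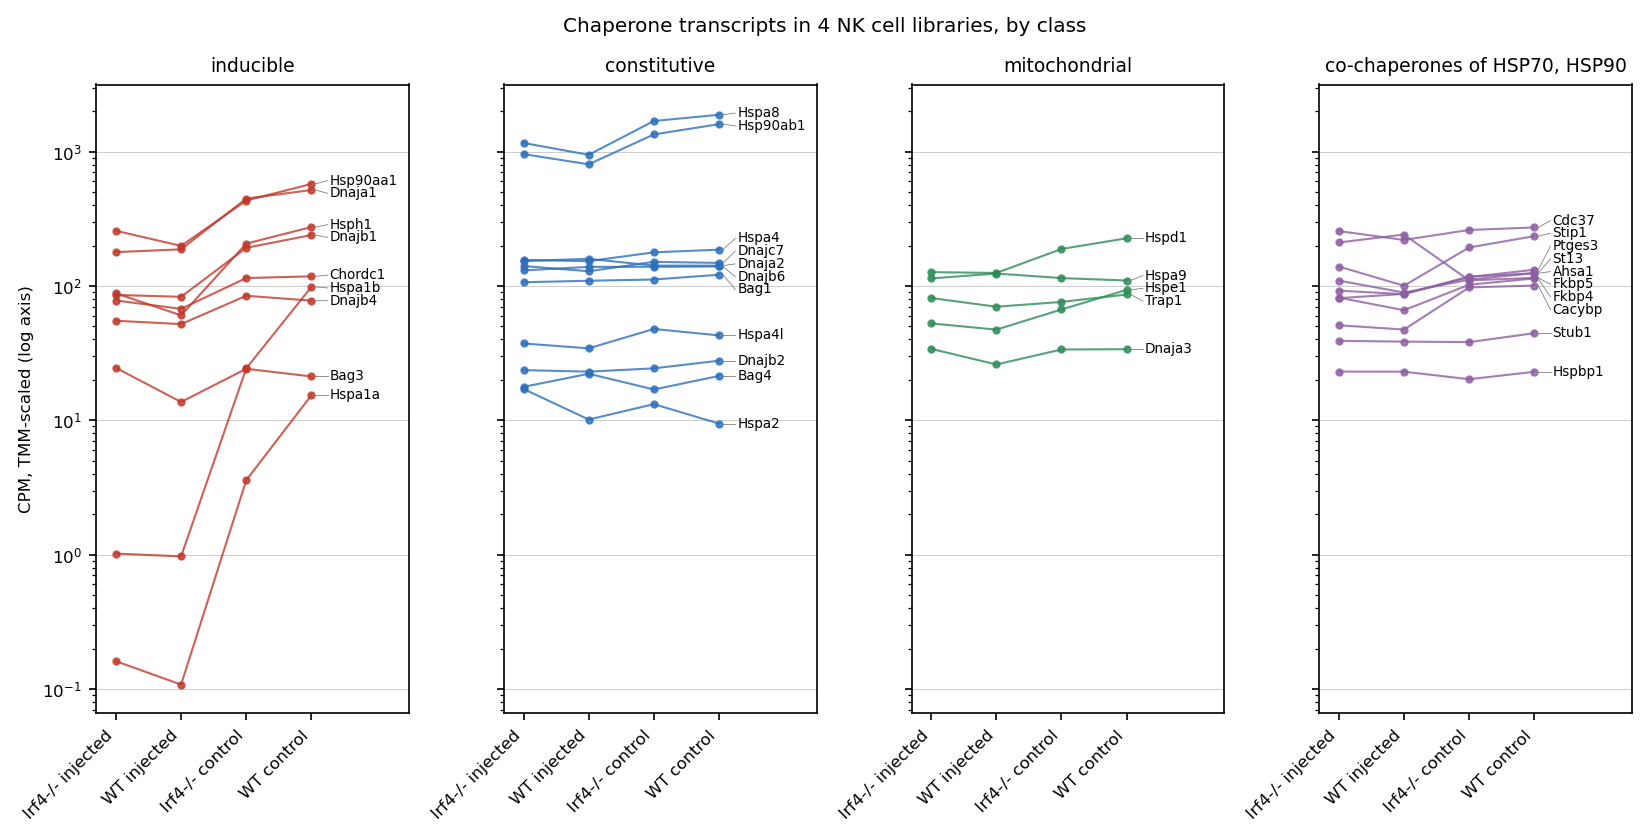
Transcript levels of members averaging at least 1 CPM in the 4 libraries, as scaled CPM on a log axis; each line joins the values of 1 gene, and the panels are classes. Hspa1a and Hspa1b drop by far the most in the injected libraries, the other inducible genes except Bag3 by less, and most constitutive and mitochondrial genes run nearly level.

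Hspa1b (ENSMUSG00000090877, chromosome 17, 34956436 to 34959238 on GRCm38) had 19 counts in Irf4-/- injected and 18 in WT injected cells, against 388 in Irf4-/- control and 2084 in WT control cells. As CPM these were 1.02, 0.97, 24.4 and 98.5 CPM in the same order. The injected libraries were alike and nearly empty of this transcript, and the control libraries were far above them and differed from each other. The log2 ratio was -4.44 (-5.33 to -3.92) for Irf4-/- injected against Irf4-/- control and -6.51 (-7.42 to -6.0) for WT injected against WT control, the lowest of all genes over the minimum in each of these pairs. In each pair Hspa1b passed the minimum of 5 CPM only through the control library, where it is high. In the additive model Hspa1b fell by 5.80 ± 0.327 (SE) on the log2 scale with injection, with an adjusted p of 3.66e-05, and had the smallest p of all 11998 genes tested. It entered that test only through the control libraries, where it is high. The test needed 1 CPM in 2 libraries, and WT injected cells lay below that.

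Hspa1a (ENSMUSG00000091971, chromosome 17, 34969190 to 34972156 on GRCm38) followed its neighbour at a lower level, with 3 counts in Irf4-/- injected and 2 in WT injected cells, against 57 in Irf4-/- control and 325 in WT control cells. It was lower in both injected libraries, at a log2 ratio of -3.78 (-6.80 to -2.86) for the Irf4-/- pair and -6.17 (-10.21 to -5.29) for the WT pair, where counts of 2 or 3 make the size uncertain and the prior count of 2 draws it towards 0. Hspa1a fell by 5.98 ± 0.513 (SE) on the log2 scale, with an adjusted p of 0.000523. It entered that test only through the control libraries, where it is high, since injected cells lay below the minimum of 1 CPM, and it was not tested at a minimum of 5 CPM. Of the counts of both genes together Hspa1a held 13.6% (2.91 to 34.9), 10% (1.23 to 31.7), 12.8% (9.85 to 16.3) and 13.5% (12.2 to 14.9) in Irf4-/- injected, WT injected, Irf4-/- control and WT control cells, with exact 95% intervals. The 4 shares lay close together, but those of Irf4-/- injected and WT injected cells rest on 3 of 22 and 2 of 20 counts. Their wide intervals leave room for a difference. Counted as 1 gene, the pair fell by 5.82 ± 0.331 (SE) with an adjusted p of 4.14e-05.

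The nucleotide exchange factor and holdase Hsph1, which encodes HSP110, had 88.2 and 60.4 CPM in Irf4-/- injected and WT injected cells, against 206.8 and 274.8 CPM in Irf4-/- control and WT control cells. Both injected libraries lay below both control libraries. The log2 ratio was -1.23 (-1.32 to -1.14) in the Irf4-/- pair and -2.18 (-2.28 to -2.09) in the WT pair, and Hsph1 fell by 1.70 ± 0.181 (SE) with an adjusted p of 0.00212.

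Hsp90aa1, the inducible cytosolic HSP90, had 257.6 and 198.9 CPM in Irf4-/- injected and WT injected cells, against 432.8 and 575.2 CPM in Irf4-/- control and WT control cells. It was again lowest in WT injected and highest in WT control cells. Its log2 ratio was -0.75 (-0.80 to -0.70) in the Irf4-/- pair and -1.53 (-1.59 to -1.48) in the WT pair. Hsp90aa1 fell by 1.14 ± 0.163 (SE) in the additive model, with an adjusted p of 0.0167, but not with DESeq2, which gave an adjusted p of 0.199 in a range of 4.11e-20 to 0.294 over the alternatives. The transcript shares 58.5% of its 50-base stretches with other annotated genes, mostly the predicted gene Gm12346.

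The inducible J-domain partners of HSP70 differed by similar amounts in both genotypes. Dnajb1, the main HSP40 of the stress response, had 85.8 and 83.1 CPM in Irf4-/- injected and WT injected cells, against 192.4 and 239.5 CPM in Irf4-/- control and WT control cells. Dnaja1, a farnesylated J-domain protein, had 178.7 and 187.5 CPM in the injected libraries of Irf4-/- and WT mice, against 447.4 and 518.4 CPM in the control libraries of these genotypes. For both genes the injected libraries almost coincided and lay below the controls. Dnajb1 was lower by log2 ratios of -1.16 (-1.25 to -1.08) in the Irf4-/- pair and -1.53 (-1.61 to -1.44) in the WT pair, and Dnaja1 by -1.32 (-1.38 to -1.26) and -1.47 (-1.52 to -1.41) in these pairs. In the additive model Dnaja1 fell by 1.40 ± 0.109 (SE), with an adjusted p of 0.000343, and Dnajb1 by 1.35 ± 0.113 (SE), with an adjusted p of 0.00051.

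Smaller differences were found for the other inducible members. Dnajb4, a further HSP40, had 55.1 and 52.0 CPM in Irf4-/- injected and WT injected cells, against 84.6 and 77.8 CPM in Irf4-/- control and WT control cells, and fell by 0.60 ± 0.0966 (SE) with an adjusted p of 0.0219. Chordc1, an HSP90-binding protein, had 78.0 and 67.6 CPM in Irf4-/- injected and WT injected cells, against 114.6 and 118.0 CPM in Irf4-/- control and WT control cells, and fell by 0.68 ± 0.101 (SE) with an adjusted p of 0.0181. The orders of libraries of Dnajb4 and Chordc1 were those of 7.15% and 8.28% of 9674 genes. In neither gene did injected and control libraries overlap, and neither reached 2-fold in a pair. Bag3, which links HSP70 to selective autophagy, did not follow this pattern, with 24.6 and 13.7 CPM in Irf4-/- injected and WT injected cells, against 24.2 and 21.2 CPM in Irf4-/- control and WT control cells. WT injected cells alone were low, and the additive change of Bag3 with injection was -0.30 ± 0.177 (SE), with an adjusted p of 0.48. The small heat shock protein gene Hspb1 had at most 2 counts in any library and was not tested.

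The constitutive members include the most abundant chaperone transcripts of these cells. Per length, the cytosolic HSP90 gene Hsp90ab1 averaged 468 FPKM (fragments scaled to gene length and library size) and the HSP70 cognate gene Hspa8 450 FPKM over the 4 libraries, and the next in order was Hsp90aa1 at 112 FPKM. The leading pair stood far above the other members in every library. The next place was not fixed: the kinase adaptor gene Cdc37 had 104.4 and 89.2 FPKM in Irf4-/- injected and WT injected cells, where Hsp90aa1 had 78.5 and 60.3 FPKM. Hspa1b averaged 11.2 FPKM and Hspa1a 1.62 FPKM. Hspa8 had 1160 and 948 CPM in Irf4-/- injected and WT injected cells, against 1692 and 1883 CPM in Irf4-/- control and WT control cells. Hsp90ab1 had 959 and 805 CPM in the Irf4-/- and WT injected libraries, against 1344 and 1603 CPM in the Irf4-/- and WT control libraries. Both genes thus kept the same order of libraries as Hspa1b at less than 2-fold. Hspa8 fell by 0.77 ± 0.142 (SE), with an adjusted p of 0.0429, and Hsp90ab1 was at -0.74 ± 0.145 (SE), with an adjusted p of 0.0514. Hsp90ab1 thus missed the threshold by little, and it passed under 7 of 9 alternatives. Of the 50-base stretches of the Hspa8 transcript 74.8% also occur in other annotated genes, mostly Gm15459.

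The other 9 constitutive members did not pass. They ranged in the additive model from -0.34 for Hspa4l, an HSP110 relative, to 0.24 for Hspa2, an HSP70 best known from the testis. Hspa4, the constitutive HSP110 relative, was at -0.24 ± 0.0978 (SE), and the J-domain genes Dnaja2, Dnajb2, Dnajb6 and Dnajc7 lay between -0.16 and 0.14. The exchange factor Bag1 was at -0.11 ± 0.0942 (SE), with 107 and 109 CPM in Irf4-/- injected and WT injected cells, against 112 and 121 CPM in Irf4-/- control and WT control cells. Its 4 libraries were close together, and Bag4 was at 0.06 ± 0.149 (SE).

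Of the 5 mitochondrial members, the chaperonin pair Hspd1 and Hspe1 was lower in injected cells, and only Hspd1 passed the test. Hspd1, which encodes HSP60, had 126.8 and 125.0 CPM in Irf4-/- injected and WT injected cells, against 188.6 and 226.7 CPM in Irf4-/- control and WT control cells, and fell by 0.72 ± 0.107 (SE) with an adjusted p of 0.0181. Its partner Hspe1, HSP10, is transcribed from the same promoter region on the other strand. Hspe1 had 52.7 and 47.3 CPM in Irf4-/- injected and WT injected cells, against 66.9 and 93.6 CPM in Irf4-/- control and WT control cells, and was at -0.67 ± 0.139 (SE) with an adjusted p of 0.0611. The 2 genes had the same order of libraries, and 44.8% of the 50-base stretches of each also occur in other annotated genes, mostly pseudogenes for Hspd1. Hspa9, the mitochondrial HSP70, had 113.9 and 123.9 CPM in Irf4-/- injected and WT injected cells, against 114.5 and 109.9 CPM in Irf4-/- control and WT control cells. It was level across the libraries, at 0.08 ± 0.0975 (SE), and Trap1, the mitochondrial HSP90, and Dnaja3, a mitochondrial J-domain protein, were at -0.10 ± 0.112 and -0.18 ± 0.14 (SE).

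Among the 10 co-chaperones 3 fell and 1 rose with injection. Cacybp, an adaptor of SIAH1 ubiquitin ligase complexes that binds HSP90, had 51.0 and 47.4 CPM in Irf4-/- injected and WT injected cells, against 97.6 and 100.8 CPM in Irf4-/- control and WT control cells. Each injected library held about as little Cacybp as the other, and it fell by 1.01 ± 0.0979 (SE) with an adjusted p of 0.00106. Stip1, the HOP protein that joins HSP70 to HSP90, had 139.7 and 100.5 CPM in Irf4-/- injected and WT injected cells, against 193.5 and 235.0 CPM in Irf4-/- control and WT control cells. Stip1 spread more widely and fell by 0.85 ± 0.153 (SE), with an adjusted p of 0.0381, but not with DESeq2, which gave an adjusted p of 0.618 in a range of 2.47e-11 to 0.618 over the alternatives. Ptges3, the p23 protein that binds the closed form of HSP90, had 81.2 and 87.3 CPM in Irf4-/- injected and WT injected cells, against 116.6 and 132.2 CPM in Irf4-/- control and WT control cells, and fell by 0.56 ± 0.0942 (SE) with an adjusted p of 0.0265.

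Fkbp5, which encodes the immunophilin FKBP51 and is known as a target of the glucocorticoid receptor that it restrains, went the other way. It had 210.9 and 241.5 CPM in Irf4-/- injected and WT injected cells, against 110.2 and 115.0 CPM in Irf4-/- control and WT control cells. Both injected libraries were about as far above both controls, with log2 ratios of 0.94 (0.86 to 1.02) in the Irf4-/- pair and 1.07 (1.0 to 1.14) in the WT pair. Fkbp5 rose by 1.0 ± 0.1 (SE) on the log2 scale, with an adjusted p of 0.00126. Its relative Fkbp4, FKBP52, had 82.0 and 66.0 CPM in Irf4-/- injected and WT injected cells, against 102.2 and 113.8 CPM in Irf4-/- control and WT control cells, and was at -0.55 ± 0.118 (SE) with an adjusted p of 0.0673. The HSP90 activator Ahsa1 was at -0.43 ± 0.0968 (SE) with an adjusted p of 0.0786. The kinase adaptor Cdc37, the HSP70 co-chaperones St13 and Hspbp1 and the ubiquitin ligase Stub1 lay between -0.25 and 0.09, with adjusted p between 0.362 and 0.814.

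The transcription factor Hsf1 had 61.7 and 64.6 CPM in Irf4-/- injected and WT injected cells, against 67.9 and 73.7 CPM in Irf4-/- control and WT control cells. The transcript was a little lower in both injected libraries, at -0.16 ± 0.0965 (SE) with an adjusted p of 0.472. Hsf2, a related factor with a role in development, was low, at 7.99 and 10.1 CPM in Irf4-/- injected and WT injected cells, against 9.11 and 7.56 CPM in Irf4-/- control and WT control cells, and showed no common direction. Hspa13, an HSP70 relative of microsomes, was at -0.01 ± 0.14 (SE), and the collagen chaperone Serpinh1, at most 0.44 CPM, was not tested.

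**Figure D2:**
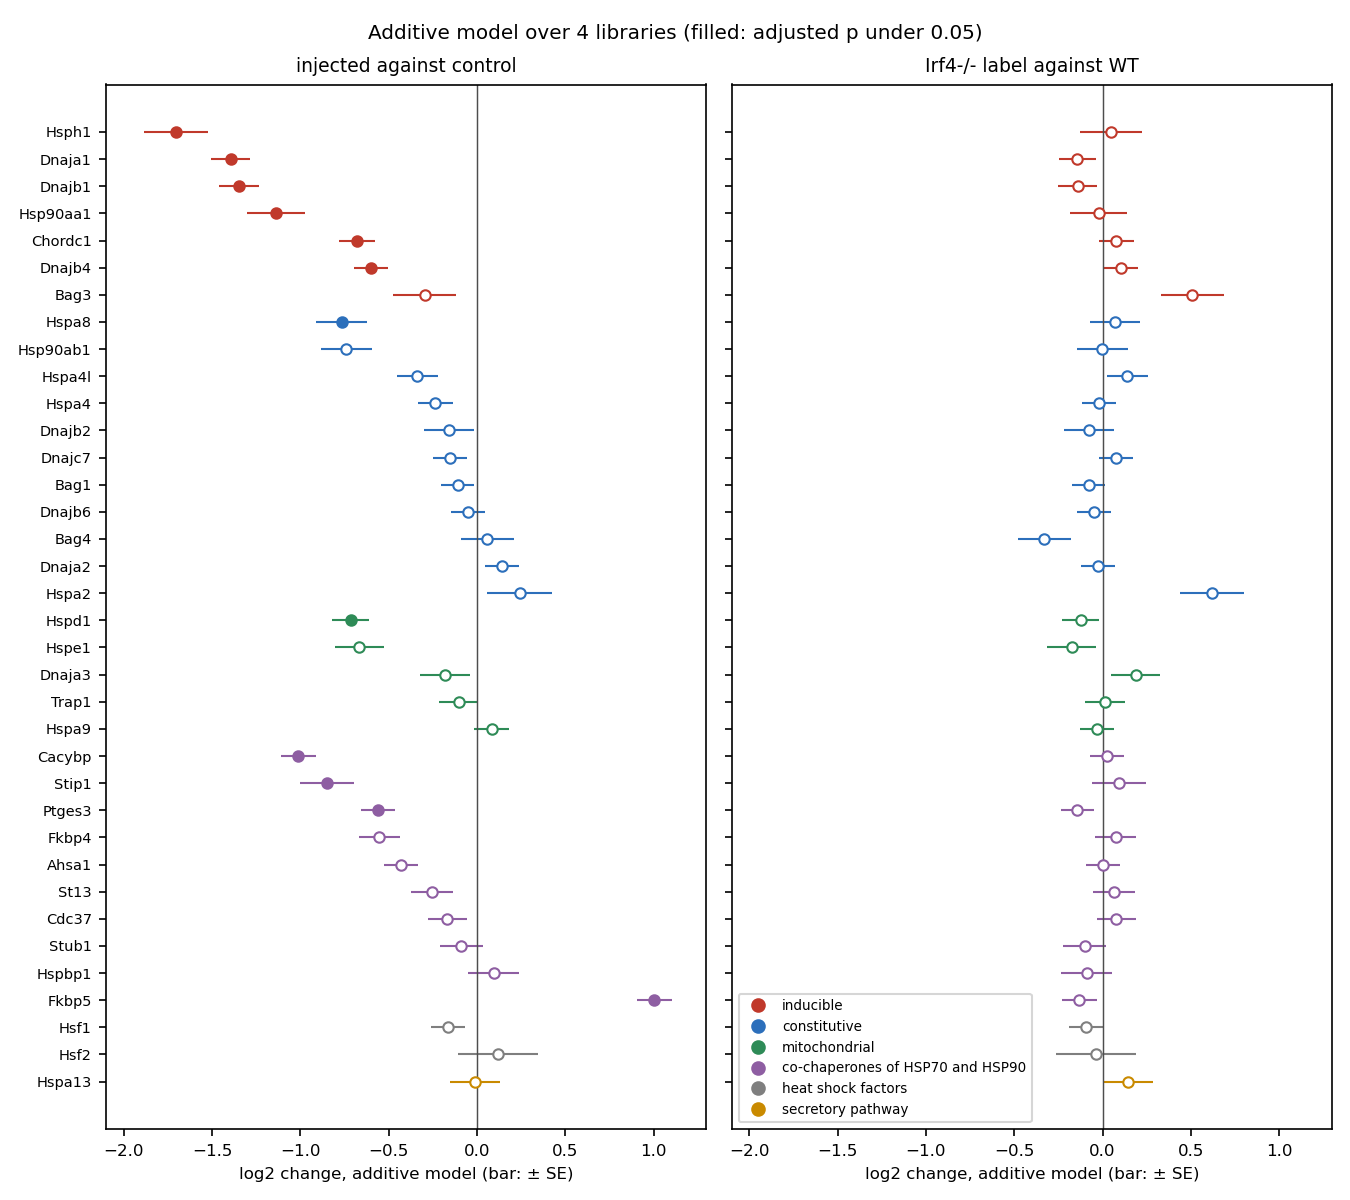
Change on the log2 scale with injection (left) and with the Irf4-/- label (right) for 36 of the 38 tested members, with SE bars; filled symbols passed an adjusted p of 0.05, and colours are classes. Hspa1a (-5.98 and -1.89) and Hspa1b (-5.80 and -1.72) lie off the scale and are left out. With injection 11 filled symbols stand left of 0 and Fkbp5 right of it; with the label none is filled.

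Taken by class, 13 of the 38 members tested fell with injection and 1 rose, where 0.392% of all 11998 genes fell and 0.333% rose. The count was 8 of 9 in the inducible class, 1 of 11 in the constitutive, 1 of 5 in the mitochondrial, 3 of 10 in the co-chaperone class, 0 of 2 for the heat shock factors and 0 of 1 in the secretory class. Without Hspa1a and Hspa1b it was 11 of 36. The members made up 27.7% of the 47 genes that fell, and 7 of the 10 smallest p-values over all genes belonged to members. These 7 include Hspa1a and Hspa1b, which entered the test only through the control libraries. The median log2 change was -1.35 in the inducible, -0.15 in the constitutive, -0.18 in the mitochondrial and -0.34 in the co-chaperone class, against 0.00 over all genes. When the genotype term was left out of the edgeR model, 0 members and 0 of all genes passed, and 19 members were lower and 1 higher at an unadjusted p under 0.05, where 4.58% of all genes were lower and 4.52% higher. With DESeq2 the count that fell was 12, of which 11 were shared with edgeR.

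In the pairs, 4 of 37 members were at least 2-fold lower and 0 higher in Irf4-/- injected than in Irf4-/- control cells, where 0.216% of all genes were lower and 0.134% higher. In WT injected against WT control cells 8 of 38 were lower and 1, Fkbp5, was higher, where 0.789% of all genes were lower and 1.11% higher. The 4 of the Irf4-/- pair were Hspa1b, Hsph1, Dnajb1 and Dnaja1, and the WT pair added Hspa1a, Hsp90aa1, Stip1 and Cacybp. Hspa1b in both pairs and Hspa1a in the WT pair passed the minimum only through the control library. By counting intervals alone 21 members lay below 0 and 4 above it in the Irf4-/- pair, where 20.8% of all genes lay below and 20.4% above. In the WT pair 30 lay below and 4 above, where 30.8% of all genes lay below and 30.2% above. At 1.5-fold the count of lower members was 7 in the Irf4-/- pair, where 1.27% of all genes were lower, and 16 in the WT pair, where 4.02% were.

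**Figure D3:**
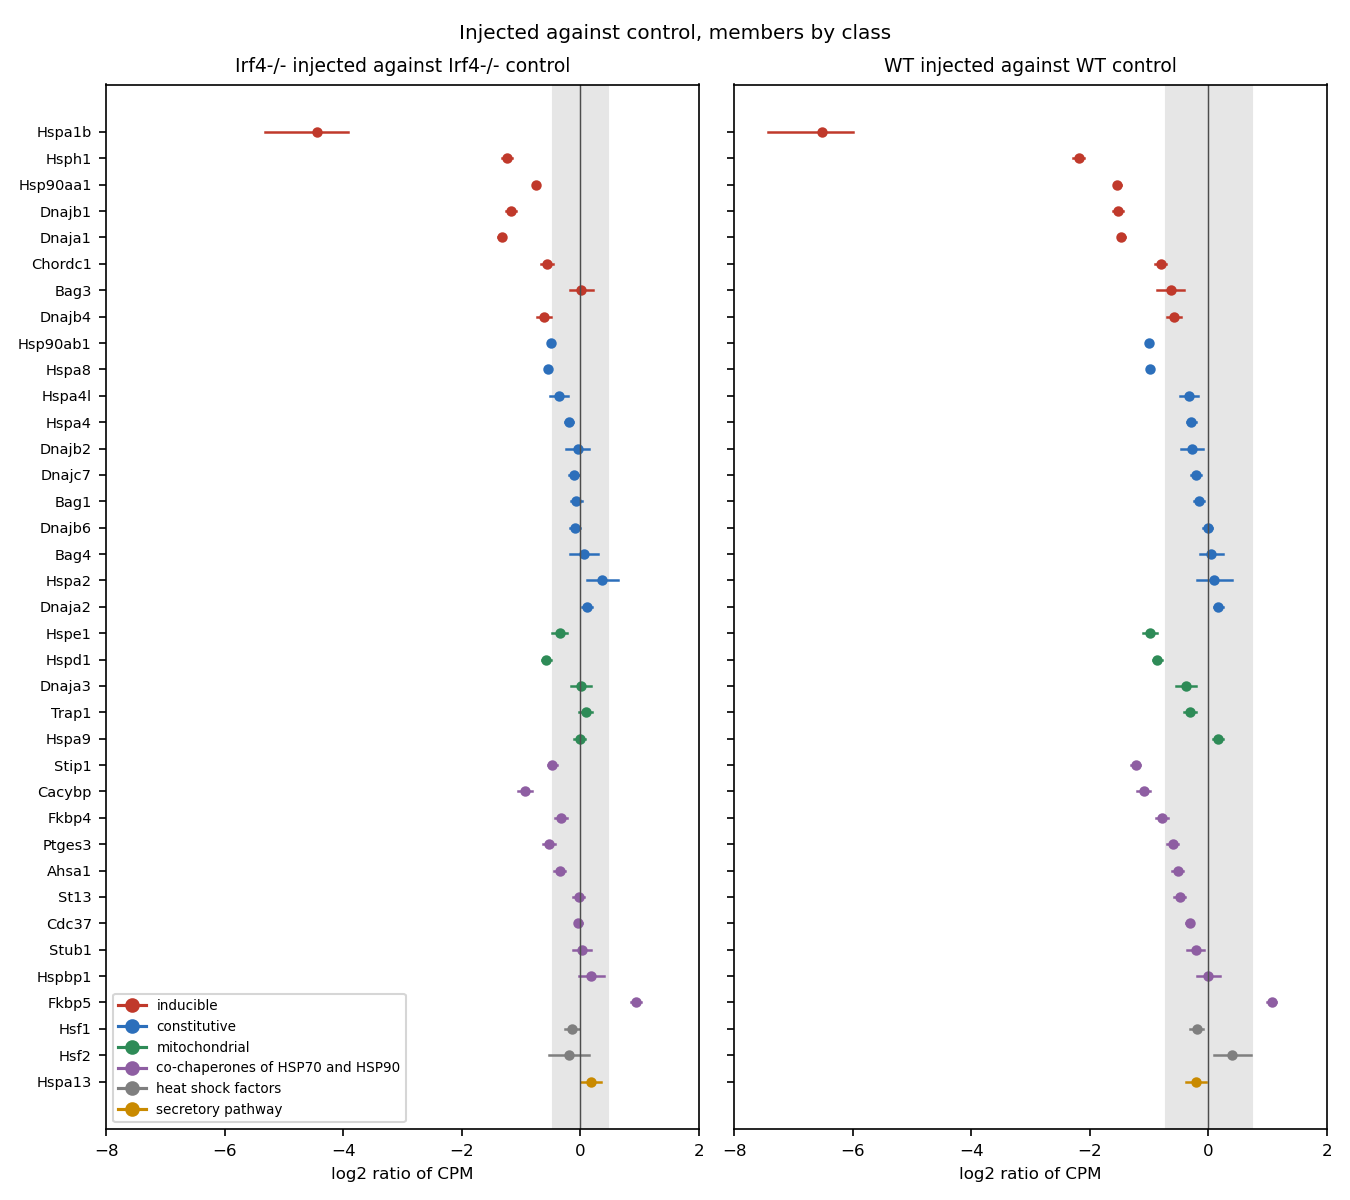
Log2 ratio of CPM in the Irf4-/- pair (left) and the WT pair (right) for the 37 members averaging at least 5 CPM over the 4 libraries (Hspa1a is below that), by class; bars are 95% counting intervals and the grey band holds the central 95% of all genes over the minimum. The inducible members other than Bag3 lie left of 0 in both pairs, and Fkbp5 lies right of 0 in both.

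The injection pairs share no library, and the members kept their relative order in them. Over 37 members the log2 ratios of the Irf4-/- pair and the WT pair correlated with a Pearson r of 0.967 and a Spearman rho of 0.828, and over the 36 that remain without Hspa1b with an r of 0.889 and a rho of 0.813. Over all 9523 genes r was 0.443 and rho 0.368. These are correlations across genes, which share libraries and depth and are not independent replicates. For 30 of 37 members the log2 ratio was lower in the WT pair than in the Irf4-/- pair, as it was for 51.3% of all genes. The gap, Irf4-/- minus WT pair, was 2.07 for Hspa1b, 0.95 for Hsph1, 0.78 for Hsp90aa1 and 0.75 for Stip1, against 0.14 for Dnaja1 and 0.15 for Cacybp. With 1 library per group this difference of responses was not tested, and it involves the WT injected library that stood apart in the table as a whole.

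**Figure D4:**
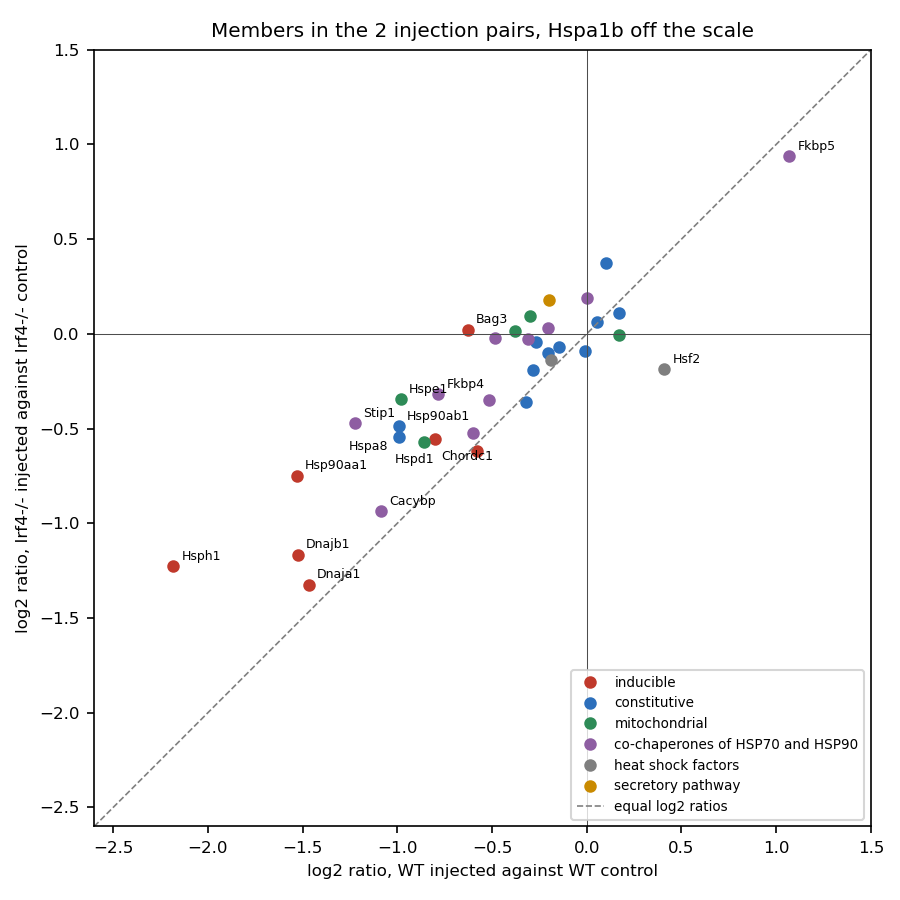
Log2 ratio of the Irf4-/- pair against that of the WT pair for 36 members, coloured by class, with the line of equal ratios dashed; Hspa1b (-4.44 and -6.51) is off the scale. Most members lie above the line, that is at a higher log2 ratio in the Irf4-/- pair, while Dnaja1 and Cacybp lie close to it.

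Genotype comparisons ask how NK cells under the Irf4-/- label differ from WT cells, with and without injection. In injected mice no member was at least 2-fold apart among 36 over the minimum, where 1.12% of all genes were higher and 0.661% lower in Irf4-/- injected cells. By counting intervals 16 members were higher in Irf4-/- injected than in WT injected cells and 7 lower, where 27.2% of all genes were higher and 27.6% lower. Erythroid markers, 5 of 5 detected and none at 0 in any library, differed between the same libraries, with sums of 105 CPM in Irf4-/- injected and 18.0 CPM in WT injected cells, and of 42.9 CPM in Irf4-/- control and 36.4 CPM in WT control cells. Their part in the result was not tested. The members highest above WT injected cells were Bag3 at a log2 ratio of 0.84 (0.62 to 1.07), Hspa2 at 0.75 (0.49 to 1.02), Hsph1 at 0.54 (0.44 to 0.66) and Stip1 at 0.47 (0.39 to 0.56). In control mice the order was turned round: 3 members had intervals above 0 in Irf4-/- control against WT control cells and 21 below it, where 18% of all genes lay above and 18.7% below. Only Hspa1a and Hspa1b, 2 of 38, were at least 2-fold lower in Irf4-/- control cells, at -2.07 (-2.53 to -1.69) and -2.01 (-2.17 to -1.86), where 0.0828% of all genes were lower and 0.725% higher. Hspa1a passed the minimum there only through WT control cells, at 15.4 CPM against 3.58 CPM in Irf4-/- control cells. Hsph1 was at -0.41 (-0.47 to -0.35), Hsp90aa1 at -0.41 (-0.45 to -0.37), Hspe1 at -0.48 (-0.59 to -0.38) and Hspd1 at -0.26 (-0.33 to -0.20).

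In the additive model 1 of 38 members, Hspa1b, fell with the Irf4-/- label, by 1.72 ± 0.287 (SE) with an adjusted p of 0.0139, and 0 rose, where 0.258% of all genes fell and 1.22% rose. At an unadjusted p under 0.05, 3 members were lower and 2 higher, where 4.38% of all genes were lower and 6.03% higher. The value for Hspa1b rests on the control libraries, since in injected cells it stood at 0.06 (-0.94 to 1.08) from 19 and 18 counts. DESeq2 did not call it, at a change of -1.04 and an adjusted p of 1.0, in a range of 8.08e-17 to 1.0 over the alternatives. Hspa1a was at -1.89 ± 0.416 (SE) with an adjusted p of 0.0599.

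The library order summarises both contrasts. WT control was highest and WT injected lowest, with Irf4-/- control next to the top and Irf4-/- injected below it, in 17 of the 37 members that averaged at least 5 CPM and in 8.28% of 9674 genes. The 17 included Hspa1b, Hsph1, Hsp90aa1, Dnajb1, Chordc1, Hspa8, Hsp90ab1, Hspd1, Hspe1, Stip1 and Cacybp. Of these, Hspa1b, Dnajb1, Hspd1 and Cacybp had counting intervals that include 0 between the injected libraries, and Chordc1 and Cacybp between the controls. WT control was the highest library for 24 of 37 members, against 23.7% of all genes, and WT injected the lowest for 24, against 34.4% of all genes. Summed CPM of the inducible class were 769 and 664 in Irf4-/- injected and WT injected cells, against 1531 and 1939 in Irf4-/- control and WT control cells. The constitutive class summed to 2903 and 2532 CPM in the Irf4-/- and WT injected libraries, against 3861 and 4325 CPM in the control libraries of these genotypes. In both classes the injected libraries were below the controls. The summed monocyte and macrophage markers ran in the opposite order of libraries, with none of the 10 at 0 in all 4. Of them Vcam1 rose by 2.0 ± 0.29 (SE) with injection and Lyz2 fell by 1.26 ± 0.193 (SE). B cell markers summed to 267 and 227 CPM in Irf4-/- and WT injected cells, against 267 and 266 CPM in the controls. Of these 8 markers 0 passed with injection by edgeR, while 6 were lower and 0 higher at its unadjusted p under 0.05. Of all genes 6.84% were lower and 7.33% higher by that measure. T cell markers summed to 848 and 645 CPM in injected cells, against 842 and 879 CPM. The part of these markers in the result was not tested.

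Chaperone systems outside the list were set beside it, from lists drawn up by function. The cytosolic chaperonin TRiC and its helper prefoldin, which fold actin and tubulin, had 0 of 14 genes passing with injection by edgeR or DESeq2, and a median log2 change of -0.16. At edgeR's unadjusted p under 0.05, 3 were lower and 1 higher, where 6.84% of all genes were lower and 7.33% higher. Other cytosolic chaperone and ubiquitin genes had 0 of 23 passing by either tool, 0 at the unadjusted p, and a median of 0.00. The endoplasmic reticulum chaperones had 0 of 14 passing by either tool, 1 lower at edgeR's unadjusted p, and a median of -0.17. In the pairs their medians were 0.08 for Irf4-/- injected against Irf4-/- control and -0.42 for WT injected against WT control. Calr, the calcium-binding chaperone calreticulin, had 474 and 244 CPM in Irf4-/- injected and WT injected cells, against 410 and 448 CPM in Irf4-/- control and WT control cells. Calr was low in WT injected cells alone. Over the list all 14 intervals lay above 0 for Irf4-/- injected against WT injected cells, where 27.2% of all genes did, with a median of 0.50. For WT injected against WT control cells 12 of 14 lay below 0, where 30.8% of all genes did. The medians in the Irf4-/- pair were thus 0.08 for the reticulum list and -1.16 for the inducible cytosolic class, with no test of that difference.

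Immediate early genes, which are transcribed within minutes of a stimulus, were included as a second kind of rapid response. With injection 0 of 23 passed by edgeR or DESeq2, 5 were higher and 3 lower at edgeR's unadjusted p, where 7.33% of all genes were higher and 6.84% lower, and the median was 0.01. Fosb had 3.86 and 7.76 CPM in Irf4-/- injected and WT injected cells, against 19.3 and 9.74 CPM in Irf4-/- control and WT control cells. Dusp1, a phosphatase of stress kinases, had 14.2 and 38.7 CPM in Irf4-/- injected and WT injected cells, against 38.9 and 25.1 CPM in Irf4-/- control and WT control cells. Fosb was lower in both injected libraries than in either control, with Irf4-/- injected lowest and Irf4-/- control highest. Dusp1 was lower in Irf4-/- injected than in Irf4-/- control cells but higher in WT injected than in WT control cells.

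**Figure D5:**
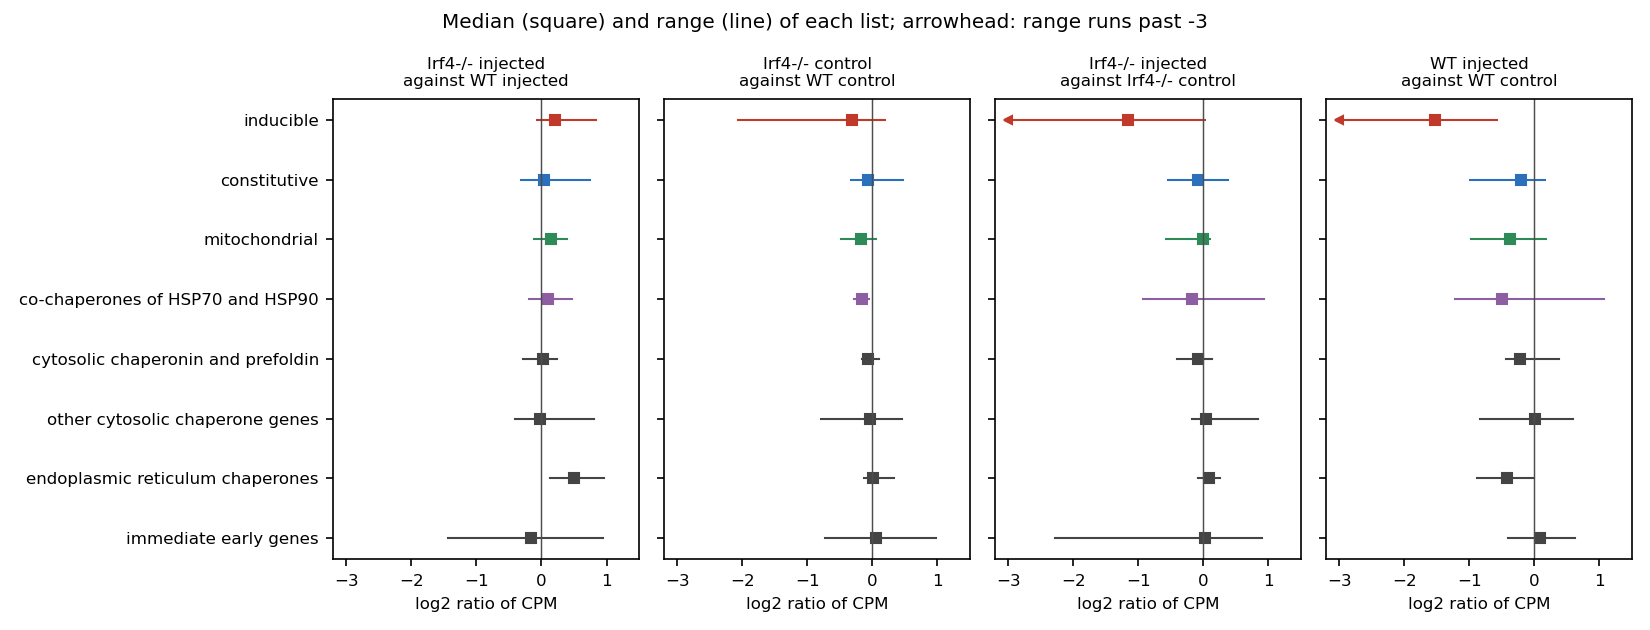
Median (square) and range (line) of the log2 ratios of 4 classes of members and 4 other lists in the 4 pairs of libraries, over genes averaging at least 1 CPM; an arrowhead marks a range that runs past -3. The inducible class has medians of -1.16 and -1.53 in the injection pairs, and the endoplasmic reticulum chaperones stand above 0 in Irf4-/- injected against WT injected cells, at 0.50.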

How the data were processed

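RNA was measured in 4 libraries of sorted splenic NK cells, 1 per group, so no group has a replicate. Per the labels' protocols, cells were enriched with a magnetic kit, sorted by flow cytometry and made into libraries with a SMARTer kit. The submitters' processing notes name TopHat, edgeR and the mm10 build without versions; the counting tool, annotation and strand setting were not given in the sources used here. The deposited table holds raw read counts per gene and FPKM values of the authors, and all 72455 FPKM values above 0 could be derived from their count, the library's total and a gene length that is whole within 0.01 bases.

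From the counts, pairs of libraries were compared as ratios of CPM scaled by TMM with a prior count of 2, with exact Clopper-Pearson 95% intervals. These cover counting error only, since copies made by PCR and read without molecular identifiers are not separate molecules; 3 counts equal 0.142 to 0.189 CPM. The additive model used genotype and injection in edgeR 4.0.16 (R 4.3.3, quasi-likelihood, Benjamini-Hochberg) over 11998 genes with at least 1 CPM in 2 libraries or more. It has 1 residual degree of freedom, to which edgeR added 9.62 prior degrees of freedom from the spread over all genes. A p-value thus reflects just the departure of 4 libraries from additive effects, largely as pooled over genes. That spread may be technical. The procedures were tested on simulated data. Alternatives were other scalings, filters and thresholds, DESeq2 1.42.0, limma-voom (limma 3.58.1), summing Hspa1a and Hspa1b, and leaving out a term or the WT injected library. FPKM was used only to order levels between genes.

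All 41 members could be named; values in every library were given for members called in any comparison and for Hspa8, Hsp90ab1, Hspd1 and Hsf1, and of other lists up to the 4 genes with the largest ratio in the pair described. Other members, markers and genes named outside that rule were chosen after their values were seen. The members and lists were chosen with earlier results of these data known. A planned comparison of protein sequences was not run.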

Additional observations from a re-analysis of the deposited data

Results flagged for a closer look

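Hspa13, the HSP70 relative of microsomes, had opposite directions in the injection pairs. It had 34.7 CPM in Irf4-/- injected cells, against 30.6 CPM in Irf4-/- control cells, a log2 ratio of 0.18 with a 95% counting interval of 0.01 to 0.35. In WT mice it had 27.4 CPM in injected cells, against 31.6 CPM in control cells, a log2 ratio of -0.20 (-0.37 to -0.03). The difference of these ratios, Irf4-/- minus WT, was 0.38. With 1 library per group the difference was not tested, and both ratios lie within the range of the central 95% of all genes in their pair.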

How the results depend on the processing

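No result reversed. With each group a single library, no library can be left out of the additive test, which would then have no residual degree of freedom; without WT injected cells the injection value is that of the Irf4-/- pair, -4.44 for Hspa1b in place of -5.80. No paired analysis was possible because each group has 1 library.

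The 13 members that fell and the 1 that rose with injection became 0 and 0 with the genotype term left out; the other settings gave 12 to 17 that fell, with Hsp90ab1, Hspe1, Ahsa1 and Fkbp4 each gained under 1 or more of them (all 4 also with the stricter 5 CPM filter). With the Irf4-/- label 1 member fell, against 2 (Hspa1a added) under median-of-ratios or upper-quartile scaling, no filter, an adjusted p of 0.1 or scaling factors from all genes, the last chosen after seeing the data, and 0 with DESeq2 or without the injection term. In the pairs, the 2 lower members of Irf4-/- control against WT control became 1 at a minimum of 20 CPM, 1 with Hspa1a and Hspa1b summed and 0 without them, a setting also added after seeing the data. At 1.5-fold 2 members (4.03%) were higher in Irf4-/- injected than in WT injected cells, 16 (4.02%) lower in WT injected than in WT control cells, and 1 (1.39%) higher and 7 (1.27%) lower in Irf4-/- injected than in Irf4-/- control cells, with the share of all genes at that fold in brackets.

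Over all genes, 47 fell and 40 rose with injection. These became 100 and 113 with upper-quartile scaling, 86 and 75 with a 5 CPM filter, 299 and 305 with no filter, 292 and 299 with scaling factors from all genes, 121 and 114 at an adjusted p of 0.1, and 0 and 0 with the genotype term left out. With the label 31 fell and 146 rose, against 163 and 319 with no filter, 146 and 299 with scaling factors from all genes, 14 and 119 with DESeq2, and 2 and 3 with the injection term left out. The cause was not tested. Depth limits Hspa1a and Hspa1b in injected cells, where 2 to 19 counts set their ratios.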

Other observations

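Genes known to be induced by glucocorticoids were set beside Fkbp5, from a list of 9 chosen after the data were seen. Tsc22d3, which encodes GILZ, had 151.1 and 397.8 CPM in Irf4-/- injected and WT injected cells, against 243.6 and 195.5 CPM in Irf4-/- control and WT control cells. The circadian repressor gene Per1 had 56.9 and 150.7 CPM in Irf4-/- injected and WT injected cells, against 53.7 and 57.05 CPM in Irf4-/- control and WT control cells. Klf9, a transcription factor gene, had 11.1 and 31.7 CPM in Irf4-/- injected and WT injected cells, against 9.68 and 9.93 CPM in Irf4-/- control and WT control cells. These 3 genes were high in WT injected cells alone, at log2 ratios of 1.02, 1.40 and 1.66 against WT control and -0.69, 0.08 and 0.19 for Irf4-/- injected against Irf4-/- control, whereas Fkbp5 was higher in both injected libraries.

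Sgk1, a kinase gene of the same list, had 59.7 and 50.3 CPM in Irf4-/- injected and WT injected cells, against 102.7 and 100.2 CPM in Irf4-/- control and WT control cells. It fell by 0.89 ± 0.0999 (SE) on the log2 scale in the additive model, with an adjusted p of 0.00304 by edgeR's quasi-likelihood test. No other of the 6 tested genes of the list passed, where 0.392% of all genes fell and 0.333% rose. At edgeR's unadjusted p under 0.05, 2 of the 6 were higher and 1 lower, where 7.33% of all genes were higher and 6.84% lower. The list thus holds genes on both sides of 0, and no test was made over it.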
